A study of Mus musculus with 36 samples.

Results

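The 10 enzymes described here build purine and pyrimidine nucleotides from small precursors: Cad, Dhodh and Umps of the pyrimidine pathway, and Ppat, Gart, Pfas, Paics, Adsl, Atic and Impdh2 of the purine pathway. They were taken by gene symbol from the 39017 genes of the count table, and all 10 were among the 14439 genes with enough counts to be tested. The libraries are 36, in 9 groups of 4. All hold poly(A) RNA of C57BL/6 murine pancreatic fibroblasts. One group is the mono-culture, fibroblasts grown without tumour cells. Clones E, H, K, M, N, T and V each give 1 co-culture group, grown with that tumour sub-clone for 48 h, and the tumour line labelled KPC1, on which the labels say no more, gives the last. Cells were separated after co-culture by FACS for the GFP that only the tumour cells carried. The labels give no culture time for the mono-culture, and its library names are numbered after those of all co-cultures. In each comparison with mono-culture, contact with tumour cells and other differences in handling, such as sorting, cannot be told apart. The labels give no genotype, age or driver allele for the fibroblasts, and do not say whether the 4 libraries of a group came from separate cultures, so the p-values measure the spread between these libraries, which may be technical.

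A cell can recover bases and nucleosides by salvage or make nucleotides de novo. In the pyrimidine pathway Cad carries the first steps, Dhodh oxidises dihydroorotate at the inner mitochondrial membrane and hands the electrons to ubiquinone, and Umps makes UMP. In the purine pathway Ppat commits phosphoribosyl pyrophosphate (PRPP), Gart, Pfas, Paics, Adsl and Atic build the ring up to IMP, and Impdh2 turns IMP towards GTP. Dividing cells draw on these pathways for RNA and DNA, and Cad and several purine enzymes are textbook targets of the transcription factor Myc.

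The 36 libraries held 12532122 to 21985538 counts (median 18001907). The fibroblast markers listed (12 of 12 tested, from Col1a1 to Acta2) summed to 11867 to 32459 CPM (counts scaled to a common library size) in every library, and the leukocyte, endothelial and acinar markers to at most 15.4, 5.73 and 10.4 CPM. Epithelial markers moved with co-culture. Of the 10 listed, 6 were tested and 3 to 5 were called higher with each tumour line. Their sum was 2.74 to 4.18 CPM in mono-culture, where Cldn4 and Esrp1 had no count in any library, and 20.5 to 799 CPM in the co-cultures. The median sum was 518 CPM with clone N, 454 with clone T, 333 with clone E, 329 with KPC1, 213 with clone M, 164 with clone H, 144 with clone K and 82.2 with clone V. Krt18 alone was at 0.161 CPM in mono-culture and at 54.2 CPM with clone V to 281 CPM with clone T. The part of such RNA in the enzymes' values was not tested. In bulk RNA, fewer cells that express a gene and less RNA per cell cannot be told apart.

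On a scale corrected for gene length (the authors' RPKM, which divides reads by gene length and library size), the levels of the 10 enzymes spanned a wide range. Averaged over the 36 libraries, Paics stood at 131 RPKM, Impdh2 at 54.9, Atic at 33.1, Gart at 24.9 and Umps at 23.5. Below them came Cad at 19.1, Ppat at 14.8, Adsl at 14.0, Pfas at 9.33 and Dhodh at 2.04. Dhodh, the mitochondrial step, was therefore the scarcest of the 10 transcripts and rested on 81 to 269 counts per library, where Paics rested on 3435 to 8089.

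The control regions of the genes were read from the RefSeq promoter windows (build GRCm38.p6, 250 bases before and 50 after the start site), which hold 8 of the 10 enzymes. Dhodh and Pfas had no window. The 8 windows had 53% to 69.7% G and C and 15 to 27 CG steps, against medians of 52.7% and 7 over all 32851 windows. The motif GGGCGG (the core bound by SP1) was in 8 of 8 windows on either strand, and in 35.7% of all windows. CACGTG, the E-box that Myc and its partner Max can bind, was in 3 of 8 (Paics, Atic and Impdh2) and in 7.15% of all. TTTCCCGC, an E2F-type motif, was in 1 of 8 (Ppat, with 2 copies, of which 1 overlaps a GGGCGG) and in 1.07% of all, and TTTGGCGC was in 0 of 8 and 0.514%. CCAAT was in 4 of 8 (Gart, Paics, Atic and Impdh2) and in 37.4% of all. The ATF4-type motif TGATGNAA was in 0 of 8 and 3.97%, and the NRF1 palindrome in 0 of 8 and 0.971%. A match is a stretch of letters and not a binding site, and its absence says only that these letters are not in the window.

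The stretches below are shown because Cad and Umps are the pyrimidine enzymes called higher, Paics, Atic and Impdh2 hold the E-box, and Ppat is the purine enzyme called higher most often. Capitals mark GGGCGG on either strand for Cad and Umps, CACGTG for Paics, Atic and Impdh2, and the E2F-type motif, read on the other strand, for Ppat. Each runs 5′ to 3′ on the gene's strand: Cad at chr5:31054624-31054779 (plus), Umps at chr16:33967039-33967288 (minus), Paics at chr5:76951087-76951116 (plus), Atic at chr1:71557137-71557166 (plus), Impdh2 at chr9:108560314-108560343 (plus) and Ppat at chr5:76951771-76951800 (minus).
Cad: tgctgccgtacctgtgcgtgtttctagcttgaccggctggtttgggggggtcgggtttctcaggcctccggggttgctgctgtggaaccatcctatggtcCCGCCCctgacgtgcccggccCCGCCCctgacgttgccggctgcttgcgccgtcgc
Umps: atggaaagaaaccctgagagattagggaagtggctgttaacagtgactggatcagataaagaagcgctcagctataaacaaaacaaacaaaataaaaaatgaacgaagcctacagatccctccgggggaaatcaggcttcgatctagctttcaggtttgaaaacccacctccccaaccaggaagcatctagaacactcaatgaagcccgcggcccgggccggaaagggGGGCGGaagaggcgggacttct
Paics: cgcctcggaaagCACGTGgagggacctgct
Atic: ggacctcggggtCACGTGgggtcgacacgc
Impdh2: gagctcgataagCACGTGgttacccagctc
Ppat: gagcagaccgcGCGGGAAAaaagggcagtg

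The 2 GGGCGG copies of Cad began 56 and 35 bases before its start site and the copy of Umps 22 bases before. The E-box of Atic lay 7 bases before the start, that of Impdh2 110 bases and that of Paics 203 bases, counted from the RefSeq start sites. For Atic, Impdh2 and Paics these differ from the ends of the gene spans given below, which are GENCODE's, while for Cad, Umps and Ppat they match. By the GENCODE spans, the stretch of Impdh2 lies inside the gene and that of Atic spans its start. The stretch of Paics lies inside Ppat and that of Ppat inside Paics, the 2 genes lying head to head. Cad, whose transcript moved most among the enzymes called higher, had no E-box in its window. Bases past the end of the window, further into the gene, were not searched, and binding of Myc was not tested.

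The first comparison asked whether contact with each tumour line went with other transcript levels of these enzymes. The answer differed by line. With clones H and V, 6 of the 10 enzymes were higher than in mono-culture and 1 was lower, where 27.8% of all genes tested were higher and 26.4% lower with clone H, and 29.4% and 28.9% with clone V. With clone T, 4 were higher and 1 lower (25% and 24.7% of all genes), and with KPC1 4 and 1 (30.5% and 28.5%). With clone E, 2 were higher and 1 lower, close to the 16.5% and 15.5% of all genes. With clones M and N none was higher and 1 was lower, where 12.2% and 10.8% of all genes were called with clone M, and 19.7% and 19.2% with clone N. With clone K none was higher and 3 were lower, against 10.4% and 8.69% of all genes. The enzyme that was lower was Dhodh in every co-culture, joined with clone K by Paics and Impdh2. With clones K, M and N, 0 enzymes were higher at an unadjusted p under 0.05 as well, and DESeq2 called 3, 1 and 1 enzymes in these comparisons. All adjusted p-values are from edgeR's quasi-likelihood test over all genes tested, and a gene is called at an adjusted p under 0.05.

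The median log2 fold change of the 10 enzymes was 0.47 with clone V, 0.37 with clone H, 0.24 with KPC1, 0.21 with clone T and 0.15 with clone E. It was 0.02 with clone N, -0.13 with clone M and -0.15 with clone K. The median over all genes tested lay between -0.01 and 0.01 in these comparisons, which share their 4 mono-culture libraries. The fibroblast markers moved by line too. Of the 12, 7 were lower with clone T and with KPC1 and 5 with clones H and V, with median log2 fold changes of -0.59, -0.72, -0.39 and -0.25. With clones E, K and M 1 was lower and with clone N 0, with medians of 0.03, 0.38, 0.20 and 0.03. Higher calls numbered 2 to 5 in every line. The lines with most lower fibroblast markers were thus those with 4 or 6 enzymes higher, and the part of this in the enzymes' values was not tested. The plot of the changes shows both the spread between lines and the place of Dhodh below 0.

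**Figure D1:**
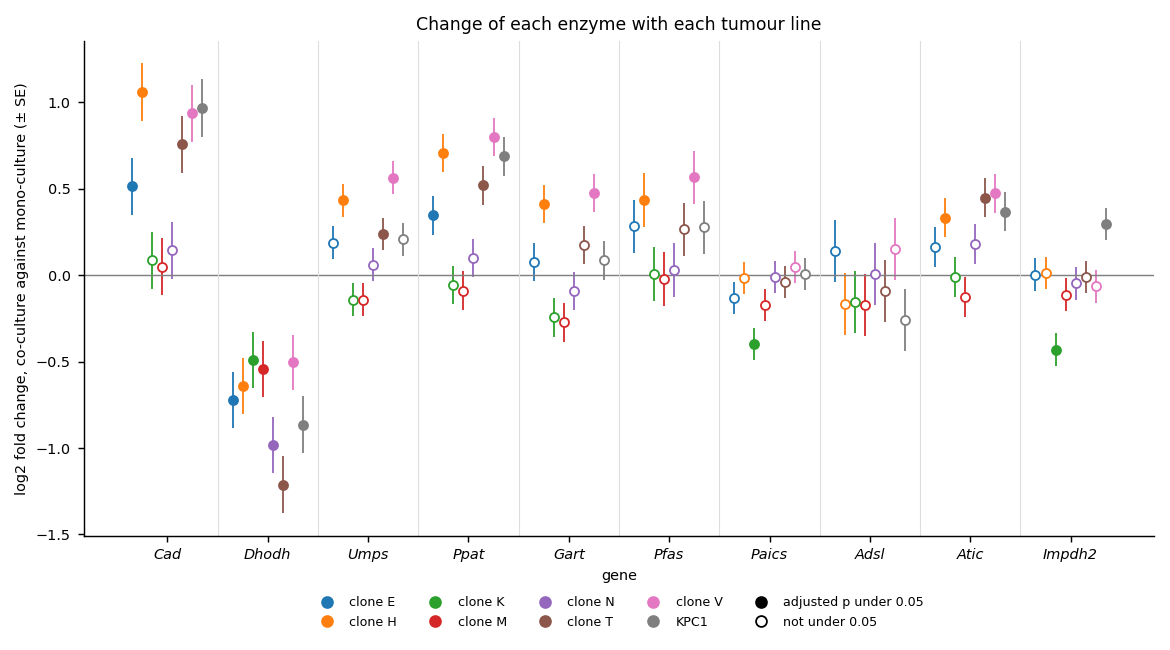
Log2 fold change of each enzyme (y axis, ± SE) with each of 8 tumour lines against mono-culture, grouped by gene on the x axis, with filled points where the adjusted p was under 0.05. The points of Dhodh lie between -0.49 and -1.21 for every line, those of Cad between 0.05 and 1.06, and those of Adsl are all open.

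Cad encodes the large protein that starts pyrimidine synthesis (ENSMUSG00000013629, chr5:31054780-31078479, plus strand, GRCm38). Its transcript was higher in 5 of 8 co-cultures. The mono-culture libraries had 84.8, 95.4, 97.7 and 93.9 CPM (93.0 ± 5.68, SD, n = 4). With clone H they had 201, 218, 232 and 125 CPM, a log2 fold change of 1.06 (adjusted p = 3.76e-06, SE 0.166), or 2.08-fold. Each clone H library lay above each mono-culture library, though replicate 4 stood well below the other three. With clone V the values were 220.3, 157, 157 and 178 CPM, a log2 fold change of 0.94 (adjusted p = 1.64e-05, SE 0.166). With KPC1 they were 209, 177, 194 and 148 CPM, a change of 0.97 (adjusted p = 1.03e-05, SE 0.166). Neither group overlapped mono-culture. With clone T the libraries had 156, 188, 169 and 115 CPM and a change of 0.76 (adjusted p = 3.42e-04, SE 0.166), and with clone E 155, 121, 145 and 109 CPM and 0.51 (adjusted p = 0.0169, SE 0.165), again with no overlap. The call with clone E rested on single libraries, since the adjusted p was 0.067 without clone E replicate 1 and 0.064 without mono-culture replicate 1. With clones K, M and N the ranges overlapped mono-culture (98.6 ± 19.9, 96.1 ± 12.2 and 103 ± 6.08 CPM, adjusted p 0.78, 0.87 and 0.53). In all, 27 of the 32 co-culture libraries lay above the highest mono-culture library and 2 below the lowest.

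Dhodh (ENSMUSG00000031730, chr8:109591343-109608673, minus strand) went the other way in every group. The mono-culture libraries had 11.3, 12.2, 11.7 and 12.3 CPM, a narrow range (11.9 ± 0.436, SD, n = 4). All 32 co-culture libraries lay below it, between 4.39 and 9.87 CPM with a median of 7.03. All groups are set against the same mono-culture libraries, and the share of all genes with such a separation is not given here. The lowest group was clone T, with 5.45, 5.88, 4.48 and 4.71 CPM and a log2 fold change of -1.21 (adjusted p = 5.68e-07, SE 0.165), 2.31-fold lower than mono-culture. Clone N followed with 6.53, 4.39, 6.78 and 6.35 CPM and a change of -0.98 (adjusted p = 1.58e-05, SE 0.164), and KPC1 with 4.80, 8.68, 5.91 and 6.73 CPM and -0.86 (adjusted p = 3.76e-05, SE 0.163). These 3 groups overlapped each other but not mono-culture. The changes were -0.72 (adjusted p = 9.32e-04, SE 0.162) with clone E, -0.64 (adjusted p = 0.00121, SE 0.161) with clone H and -0.54 (adjusted p = 0.0136, SE 0.162) with clone M. They were -0.51 (adjusted p = 0.00792, SE 0.161) with clone V and -0.49 (adjusted p = 0.0291, SE 0.161) with clone K. Clone K had 9.43, 9.75, 7.61 and 7.06 CPM, nearest to mono-culture, and its call was lost without clone K replicate 3 or 4 (adjusted p 0.095 and 0.094) or mono-culture replicate 2, 3 or 4 (0.064, 0.057 and 0.067), and with no filter on low counts (0.053). For comparison with the epithelial markers, clone V, with the lowest median sum, had Dhodh at 8.37 ± 1.04 CPM, and clone N, with the highest, at 6.01 ± 1.098 CPM.

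Umps (ENSMUSG00000022814, chr16:33954782-33967038, minus strand), which makes UMP from orotate, moved less than Cad. The mono-culture libraries had 71.3, 78.0, 69.2 and 71.6 CPM. With clone V they had 136, 108, 90.6 and 94.2 CPM, a log2 fold change of 0.56 (adjusted p = 7.16e-06, SE 0.0946), and with clone H 99.9, 112, 98.5 and 81.6 CPM, a change of 0.43 (adjusted p = 2.87e-04, SE 0.0945). Both groups lay wholly above mono-culture. With clone T the narrow range of 85.5, 89.5, 84.4 and 82.9 CPM also lay above it (change 0.24, adjusted p = 0.036, SE 0.0946), but the adjusted p exceeded 0.05 without any of 6 single libraries, at 0.0502 to 0.0817, and was 0.139 with no scaling beyond library size. This call was also lost on both RPKM scales (limma, adjusted p 0.133 and 0.132) and with other filters on low counts (0.0514 with none, 0.0616 with at least 10 counts in every library). KPC1 did not pass (0.21, adjusted p = 0.0598, SE 0.0946), although its 4 libraries, 82.8, 87.3, 81.3 and 83.7 CPM, were above each mono-culture library. With clones K and M the levels were 65.7 ± 2.21 and 65.7 ± 2.36 CPM, each library at or below 68.8 CPM and so under the lowest of the mono-culture, without passing the test (adjusted p 0.32 and 0.30).

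**Figure D2:**
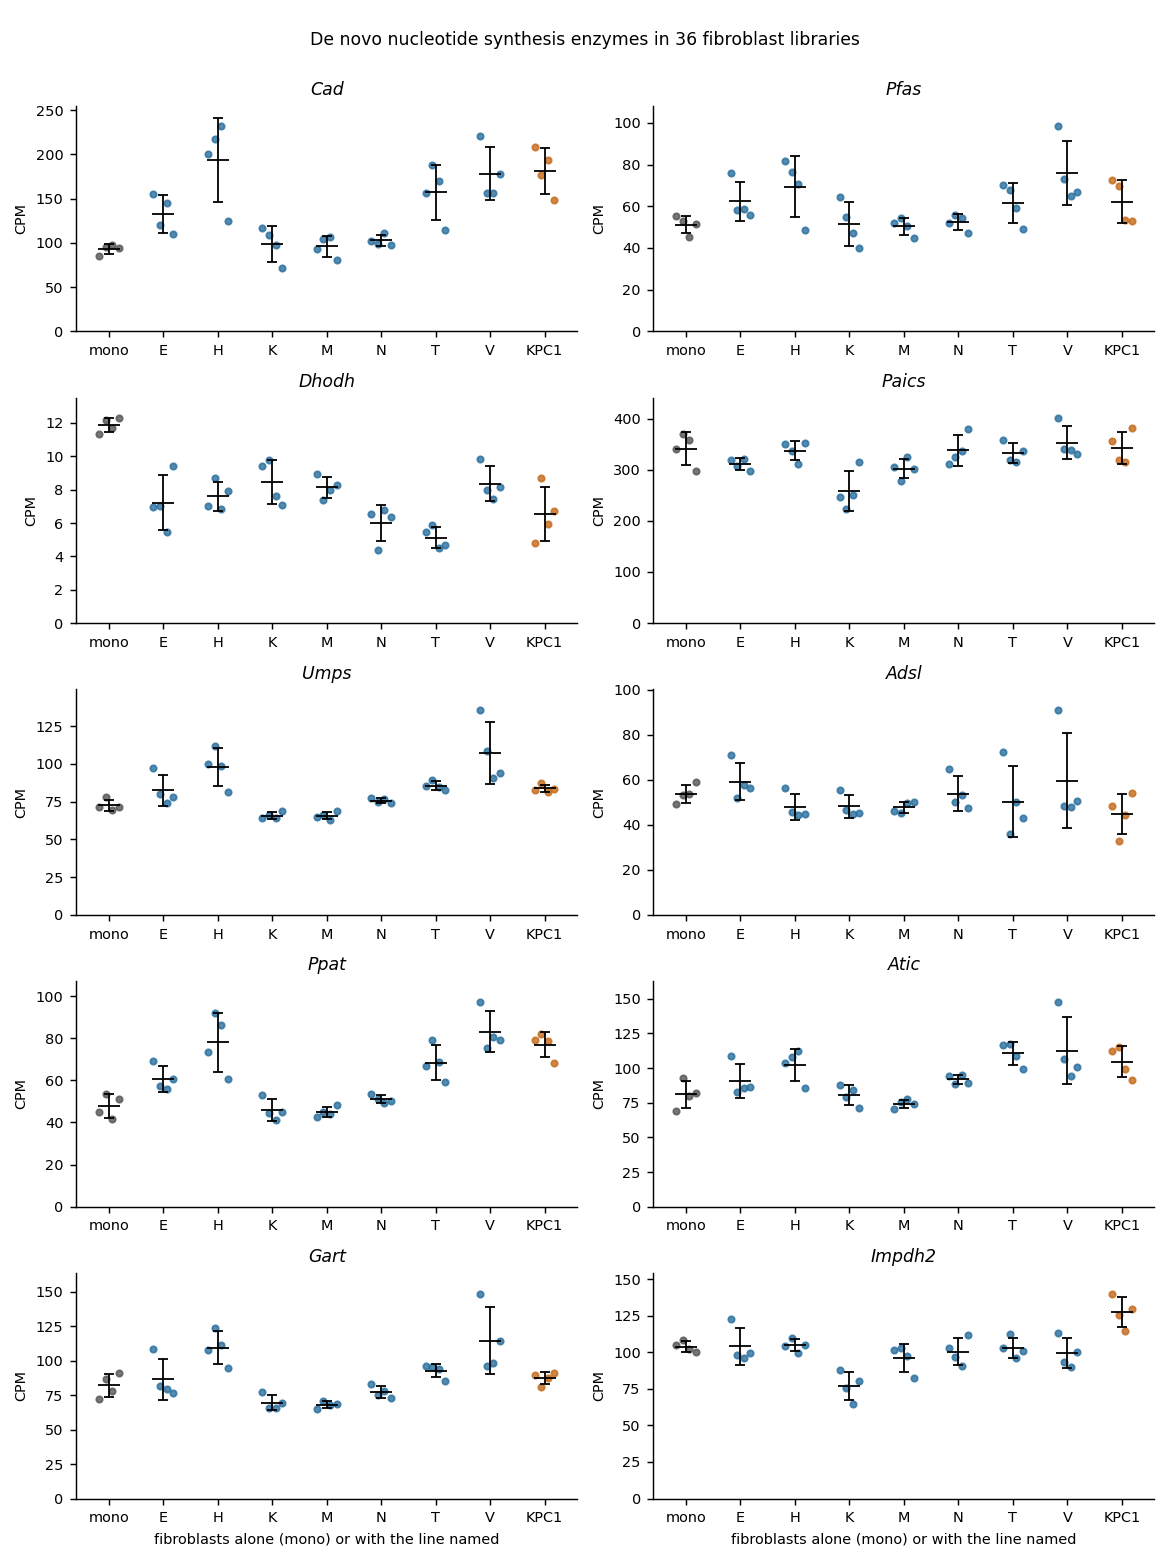
Level of each enzyme in CPM (y axis, linear from 0) in the 4 libraries of each group (points), with the group mean and SD (black), for mono-culture (grey), the 7 clones (blue) and KPC1 (orange). In Dhodh the 4 mono-culture libraries, 11.3 to 12.3 CPM, stand above every other point, while in Cad 27 of 32 co-culture libraries stand above the mono-culture.

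Ppat encodes the amidophosphoribosyltransferase that commits PRPP to purines (ENSMUSG00000029246, chr5:76913249-76951578, minus strand). It was called higher with the same lines as Cad. The mono-culture libraries had 44.8, 53.4, 41.4 and 51.3 CPM. The highest group was clone V, with 97.4, 75.5, 80.4 and 79.0 CPM and a log2 fold change of 0.80 (adjusted p = 3.95e-07, SE 0.111), or 1.74-fold. Clone H had 73.4, 91.8, 86.5 and 60.5 CPM (0.71, adjusted p = 3.62e-06, SE 0.111) and KPC1 79.0, 81.8, 78.8 and 68.3 CPM (0.69, adjusted p = 4.11e-06, SE 0.111). None of these 12 libraries overlapped mono-culture. Clone T had 66.8, 79.0, 68.8 and 59.2 CPM (0.52, adjusted p = 2.58e-04, SE 0.111) and clone E 69.2, 57.4, 55.7 and 60.4 CPM (0.35, adjusted p = 0.0167, SE 0.111). The call with clone E was lost without clone E replicate 1 (adjusted p 0.075), mono-culture replicate 1 (0.068) or mono-culture replicate 3 (0.064). With clones K, M and N the level was 45.9 ± 5.08, 44.9 ± 2.51 and 51.1 ± 1.77 CPM, beside the mono-culture's 47.7 ± 5.59 CPM (SD, n = 4 each).

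Gart, which carries several early steps of the ring (ENSMUSG00000022962, chr16:91621186-91646952, minus strand), and Pfas, which takes the step between them (ENSMUSG00000020899, chr11:68985697-69008460, minus strand), were each called higher with clones H and V. Gart had 72.6, 87.1, 78.4 and 91.1 CPM in mono-culture, 108, 124, 112 and 94.9 with clone H and 149, 96.2, 98.6 and 114 with clone V. The log2 fold changes were 0.41 (adjusted p = 0.00218, SE 0.110) and 0.48 (adjusted p = 4.49e-04, SE 0.110), and neither group overlapped mono-culture. The 8 libraries with clones K and M, at 64.8 to 77.0 CPM, lay below the mono-culture mean of 82.3 ± 8.39 CPM, with changes of -0.24 (adjusted p = 0.12, SE 0.110) and -0.27 (adjusted p = 0.0717, SE 0.111) that did not pass. Pfas had 55.2, 52.9, 45.2 and 51.5 CPM in mono-culture and 98.4, 73.1, 65.1 and 66.8 with clone V, a change of 0.57 (adjusted p = 0.00218, SE 0.154) with no overlap. With clone H it had 81.7, 76.4, 70.6 and 48.6 CPM, a change of 0.43 (adjusted p = 0.0174, SE 0.154), and replicate 4 lay inside the mono-culture range. That call was lost without clone H replicate 1 (adjusted p 0.077) or replicate 2 (0.054), and on both RPKM scales (limma, adjusted p 0.0581 and 0.0577). With clones E and T and with KPC1 the change of Pfas was 0.28 (adjusted p = 0.17, SE 0.154), 0.26 (adjusted p = 0.16, SE 0.154) and 0.28 (adjusted p = 0.12, SE 0.154), not called here but called in a fit with replicate number as a block (adjusted p 0.0297, 0.0317 and 0.0215), as was Gart with clone M, which was lower (0.0482).

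Paics, which carboxylates the ring precursor and adds aspartate (ENSMUSG00000029247, chr5:76951307-76967509, plus strand), was the most abundant enzyme and moved little. The mono-culture libraries had 342, 369.6, 358 and 297 CPM. In 7 of 8 co-cultures the log2 fold change was between -0.17 and 0.05 and did not pass. With clone K the libraries had 246, 223, 250.4 and 316 CPM, a log2 fold change of -0.40 (adjusted p = 0.00226, SE 0.0930), with replicate 4 inside the mono-culture range and the other three below it. Paics and Ppat lie head to head on chromosome 5, and their annotated spans share 272 bases, 76951307 to 76951578, at their 5′ ends. The libraries were made with a strand-specific kit, but the strand setting of the counting was not given in the sources used here, so reads from this stretch may be split between the 2 genes.

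Adsl, which releases fumarate late on the way to IMP and again on the way to AMP (ENSMUSG00000022407, chr15:80948490-80970946, plus strand), was called in 0 of 8 co-cultures, and in 0 of 8 at an unadjusted p under 0.05. Its log2 fold changes ran from -0.26 (adjusted p = 0.22, SE 0.18) with KPC1 to 0.15 (adjusted p = 0.49, SE 0.179) with clone V. The spread was wide in some groups: clone V had 91.0, 48.4, 48.1 and 50.7 CPM and clone T 72.2, 35.9, 50.1 and 43.0 CPM, in both cases with replicate 1 far above the others, against 49.2, 53.3, 53.5 and 58.8 CPM in mono-culture. Without clone V replicate 1 the change with clone V was -0.12.

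Atic, which closes the ring to give IMP (ENSMUSG00000026192, chr1:71557150-71579631, plus strand), was higher with clones H, T and V and with KPC1. Its mono-culture libraries had 69.4, 93.0, 79.7 and 82.0 CPM. With clone T they had 116, 118, 109 and 99.4 CPM, a log2 fold change of 0.45 (adjusted p = 0.0016, SE 0.114) and no overlap. With clone V they had 148, 107, 94.3 and 101 CPM (0.47, adjusted p = 6.98e-04, SE 0.114), also above each mono-culture library. With KPC1 the range of 113, 115, 99.4 and 91.4 CPM (0.37, adjusted p = 0.00637, SE 0.114) and with clone H that of 103, 108, 112 and 85.2 CPM (0.33, adjusted p = 0.0144, SE 0.114) each overlapped the highest mono-culture library. The call with clone H was lost without clone H replicate 3 (adjusted p 0.058) or mono-culture replicate 1 (0.076), and with no scaling beyond library size (0.055). It was also lost on both RPKM scales (limma, adjusted p 0.0517 and 0.0504).

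Impdh2, the step from IMP towards GTP (ENSMUSG00000062867, chr9:108560286-108565584, plus strand), was the single enzyme called in both directions. Its mono-culture libraries had 105, 108, 102 and 100.01 CPM. With KPC1 they had 140.2, 126, 115 and 129.7 CPM, wholly above, with a log2 fold change of 0.30 (adjusted p = 0.00726, SE 0.0934). With clone K they had 87.7, 75.7, 64.7 and 80.2 CPM, wholly below, with a change of -0.43 (adjusted p = 0.00117, SE 0.0937). In the other 6 co-cultures the change lay between -0.11 and 0.01 and did not pass. The call with KPC1 was lost without KPC1 replicate 1 (adjusted p 0.051), with no scaling beyond library size (0.069) and on both RPKM scales (0.074 and 0.075).

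Averaged over the 7 clones, 4 enzymes were higher than in mono-culture and 1 was lower, where 24.3% of all genes were higher and 24.9% lower. The log2 fold change was 0.51 (adjusted p = 0.00172, SE 0.130) for Cad, 0.33 (adjusted p = 0.00188, SE 0.0863) for Ppat, 0.21 (adjusted p = 0.0485, SE 0.0880) for Atic and 0.17 (adjusted p = 0.0499, SE 0.0726) for Umps. It was -0.73 (adjusted p = 4.71e-06, SE 0.115) for Dhodh. The calls of Cad, Ppat and Dhodh held in all 36 refits that left out 1 library each. Those of Umps and Atic stood just inside the threshold, and in these refits the adjusted p ran from 0.0323 to 0.147 for Umps, which was not called in 23 of them, and from 0.0206 to 0.297 for Atic, not called in 22. Pfas (0.22, adjusted p = 0.12, SE 0.119), Gart (0.07, adjusted p = 0.49, SE 0.0838), Paics (-0.10, adjusted p = 0.22, SE 0.0695), Impdh2 (-0.09, adjusted p = 0.28, SE 0.0701) and Adsl (-0.04, adjusted p = 0.83, SE 0.135) did not pass.

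The next comparison asked whether the fibroblasts differed by the clone they met. A test over the 7 clones together called 9 of 10 enzymes, where it called 67.5% of all genes. The lowest adjusted p was that of Ppat (1.33e-08), followed by Umps (1.50e-07), Gart (3.91e-07) and Cad (1.19e-06). The remaining values were 1.12e-04 for Atic, 0.00173 for Dhodh, 0.00175 for Impdh2, 0.00191 for Paics and 0.00432 for Pfas. Adsl did not pass (0.35). The fitted log2 fold changes of the highest and the lowest clone differed by 1.01 for Cad (clone H against clone M), 0.89 for Ppat (clone V against clone M) and 0.72 for Dhodh (clone K against clone T). They differed by 0.45 for Paics and 0.32 for Adsl.

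KPC1 was also set against the mean of the 7 clones. Of the 10 enzymes 3 were higher and 0 lower, where 22.3% of all genes were higher and 18.8% lower. The 3 were Impdh2, with a log2 fold change of 0.39 (adjusted p = 5.10e-05, SE 0.0683), Cad with 0.46 (adjusted p = 0.00265, SE 0.119) and Ppat with 0.36 (adjusted p = 8.12e-04, SE 0.0810). The other 7 had changes between -0.22 (Adsl) and 0.16 (Atic), and of these 0 had an unadjusted p under 0.05.

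The 9 groups were put in order of the level of each enzyme, and neighbours in that order were compared. Of the 80 neighbouring pairs 1 was called, mono-culture against clone K for Dhodh (adjusted p = 0.0291), where 20.5% of the same pairs were called over all genes. Sorting by level made these the smallest steps of each enzyme, and for other genes the same groups need not be neighbours, so nothing is read from the count against that share. The other neighbours did not pass the test. For Cad it ran clone H, KPC1, V, T, E, N, K, M and mono-culture. For Dhodh it ran mono-culture, clone K, V, M, H, E, KPC1, N and T.

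To set enzymes against each other free of scaling, the ratio of 2 counts was taken within each library. The choice of both ratios followed a look at the values, and the adjustment below does not cover the pairs not chosen. The p-values thus describe the chosen pairs and add no separate evidence. The log2 ratio of Dhodh to Cad was -2.90, -2.97, -3.06 and -2.93 in the mono-culture libraries. In all 8 co-cultures each library lay below them, from -3.53 ± 0.155 with clone K to -4.92 ± 0.267 with clone T (SD, n = 4 each), and each group differed from mono-culture with an exact permutation p of 0.0286 (two-sided, adjusted p = 0.0381 over 16 tests). That p is the smallest that 4 against 4 libraries can give. The log2 ratio of Ppat to Paics, the head-to-head pair, was -2.93, -2.79, -3.11 and -2.53 in mono-culture. It was higher with clone V (-2.04, -2.18, -2.08 and -2.07), with KPC1 (-2.17, -1.96, -2.003 and -2.48), with clone T (-2.43, -2.02, -2.19 and -2.51) and with clone E (-2.21, -2.42, -2.53 and -2.30), each with an exact permutation p of 0.0286 (adjusted p = 0.0381). With clone H the ratio was -2.13 ± 0.334 (exact permutation p = 0.0571, adjusted p = 0.0703), and with clones K, M and N the exact permutation p was 0.14, 0.60 and 0.40.

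**Figure D3:**
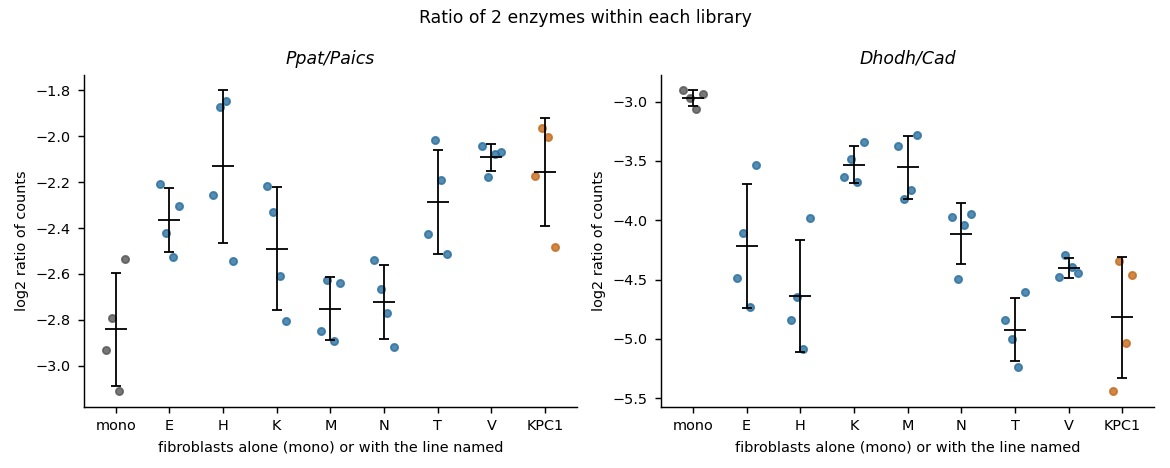
Log2 ratio of the counts of 2 enzymes within each library (y axis) for Ppat over Paics (left) and Dhodh over Cad (right), 4 libraries per group as points with the mean and SD in black. The mono-culture libraries, at -2.90 to -3.06, lie above every co-culture library in the right panel, and all 8 co-culture means lie above that of the mono-culture in the left panel, from -2.75 with clone M to -2.09 with clone V.

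Some enzymes shared a profile over the 9 groups more closely than others. Measured as the root mean square difference of centred group means on the log2 scale, Umps and Gart were 0.0487 apart, Umps and Pfas 0.0569, Gart and Pfas 0.0880, and Cad and Ppat 0.0972. Paics and Impdh2 were 0.109 apart. The widest distance was between Cad and Dhodh, 0.620. These are descriptions over 9 group means that share their libraries. Of the 9430 other genes with at least 10 CPM on average, the 5 whose profile was most like the mean of the 10 enzymes were Ahsa1 (0.0220), Nploc4 (0.0386), Cops7a (0.0402), Kars (0.0417) and Immt (0.0431).

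Genes around the pathways were counted from lists. The counts are to be read against the shares of all genes given above for each line and for the mean of the clones. The supply of PRPP and of carbon units on folate (11 of 11 listed genes tested) was called higher for 8 genes with clone V, 7 with clone H, 6 with KPC1 and 5 with clone T, and for 1 gene with each remaining clone. Clone M had 5 lower. Mthfd2, a mitochondrial folate enzyme chosen after its values were seen, was at 107 ± 15.2 CPM in mono-culture, 285 ± 65.4 with clone V and 54.5 ± 11.3 with clone M, log2 fold changes of 1.42 (adjusted p = 2.20e-05, SE 0.254) and -0.97 (adjusted p = 0.00562, SE 0.255). The list's ends were taken in the mean of the clones against mono-culture. On the high side they were Slc25a32, the mitochondrial folate carrier (0.65, adjusted p = 5.88e-06, SE 0.104), and Mthfd1l, which makes formate in mitochondria (0.38, adjusted p = 0.0263, SE 0.143). On the low side they were Prps2, a PRPP synthetase (-0.45, adjusted p = 9.30e-06, SE 0.0752), and Shmt1 (-0.12, adjusted p = 0.37, SE 0.109), which did not pass. The list's median was 0.02 in that comparison, beside 0.01 over all genes.

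The last steps to AMP, GMP, UTP and CTP (12 of 14 listed symbols in the table, the other 2 being newer names of genes already listed) were higher for 8 genes with clone V, 6 with clone H and with KPC1, 5 with clone T and 4 with clone N. In the mean of the clones 5 were higher and 1 lower, with a median of 0.11. The ends were Adssl1 (1.37, adjusted p = 0.0023, SE 0.362) and Adss (0.49, adjusted p = 4.76e-06, SE 0.0772), both adenylosuccinate synthases on the way to AMP, and Guk1 (-0.23, adjusted p = 0.19, SE 0.144, not called) and Ctps2, a CTP synthase (-0.27, adjusted p = 0.00222, SE 0.0717). The deoxynucleotide steps (9 genes) were higher for 6 genes with clone V and 4 with clone H, and lower for 2 each with clones K, M and N. In the mean of the clones 1 was higher, Rrm2, a ribonucleotide reductase subunit (0.35, adjusted p = 0.026, SE 0.132), while Tyms (0.16), Dctd (-0.10) and Rrm1 (-0.22) did not pass.

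Ribosome biogenesis genes, whose products make and assemble ribosomes, had many calls with some lines and few with others. Of 14, all were higher with clone V, 13 with clone T and with KPC1, 12 with clone H and 7 with clone E, and 2 with clone N and 0 with clones K and M, while 1 was lower with clone K. In the mean of the clones 11 were higher and 0 lower, with a median of 0.38. The highest were Gnl3 (0.78, adjusted p = 4.38e-05, SE 0.145) and Nolc1 (0.62, adjusted p = 9.58e-05, SE 0.122), and the lowest Bop1 (0.11, adjusted p = 0.45, SE 0.110) and Npm1 (0.04, adjusted p = 0.73, SE 0.0762), which did not pass. Among 12 listed regulators, 11 of them tested, 3 were higher and 1 lower in the mean of the clones. Of all genes 24.3% were higher and 24.9% lower there, so the higher calls were near that share. Myc was at 63.8 ± 10.7 CPM in mono-culture, 88.5 ± 17.5 with clone M, 248 ± 41.5 with clone V and 329 ± 94.5 with KPC1 (mean clonal change 1.40, adjusted p = 1.16e-06, SE 0.200). It was called higher in 7 of 8 co-cultures, clone M being the other. With clones K and N, where 0 of the 10 enzymes were higher, Myc was at 104 ± 18.9 and 180 ± 37.2 CPM. With clone E, where 2 enzymes were higher, it was at 165 ± 44.6 CPM. With clones H and T, where 6 and 4 enzymes were higher, it was at 244 ± 101 and 235 ± 35.8 CPM. A link between Myc and the enzymes was not tested. Rheb, an activator of mTORC1, was higher (0.46, adjusted p = 1.92e-04, SE 0.0966), Max, the partner of Myc, lower (-0.18, adjusted p = 0.0159, SE 0.0628), and Mnt, a Max-binding repressor, not called (-0.13).

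Of 14 proliferation genes, 0 were higher and 5 lower in the mean of the clones (median -0.17), where 24.3% and 24.9% of all genes were, with 7 lower with clones K and N each, 6 with clone M, and 4 higher with clone V. Mcm5 (-0.51, adjusted p = 1.27e-05, SE 0.0859) and Birc5 (-0.39, adjusted p = 0.00413, SE 0.110) were lowest, and Mki67 (0.29, adjusted p = 0.0585, SE 0.129) and Aurkb (0.01) highest, neither of which passed. With clones H and V, where 6 enzymes each were higher, 2 and 4 of the 14 proliferation genes were higher and 3 and 0 lower. With clone T and KPC1, where 4 enzymes each were higher, 0 and 1 were higher and 4 and 5 lower. These counts are to be read against the shares of all genes given for each line above. A link between proliferation genes and the enzymes was not tested.

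**Figure D4:**
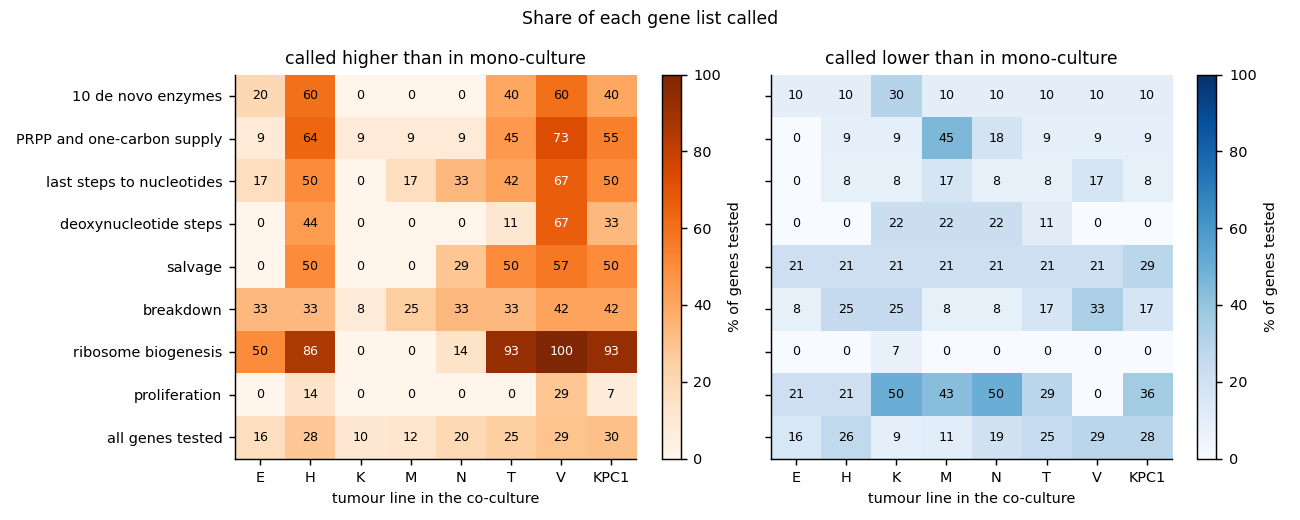
Share of genes tested (%, number and colour) called higher (left, orange) or lower (right, blue) than in mono-culture, for the 10 enzymes and 7 lists around them (rows) with each tumour line (columns), with all genes tested in the last row. With clone V 6 of 10 enzymes and 14 of 14 ribosome biogenesis genes were higher, and with clone M 0 of each.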

How the data were processed

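Gene counts of 36 libraries were analysed as deposited. Per the labels and the submitters' processing notes, poly(A) libraries were made from 200 ng of RNA with 14 amplification cycles and a strand-specific kit, sequenced as paired 76-base reads, and processed with STAR, featureCounts and edgeR on mm10; versions and settings are not given in the sources used here. The authors deposited raw counts per gene (39017 genes) and RPKM values (37746 genes). Columns were matched to samples by name. Here edgeR 4.0.16 (R 4.3.3) filtered genes by filterByExpr over 9 groups, leaving 14439, scaled them by TMM (factors 0.957 to 1.07), and fitted robust quasi-likelihood models to all libraries. P-values were adjusted by the Benjamini-Hochberg method with a threshold of 0.05. CPM values use TMM-scaled library sizes. Ratios within libraries were compared by exact permutation. Alternatives used DESeq2 1.42.0, limma 3.58.1 on log2(RPKM + 1) and log2(RPKM + 0.1), other scalings, filters and a threshold of 0.1, a replicate block, and 36 refits without 1 library each. Steps were tested on simulated data with 200 changed genes. No 2 libraries of a group agreed within sampling noise (chi-square per degree of freedom at least 5.84). Positions are from GENCODE on GRCm38, sequences from RefSeq. The enzymes, gene lists and marker lists were chosen with earlier results of these data known. Genes named from the other lists were the 2 highest and 2 lowest in the mean clonal comparison.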

Additional observations from a re-analysis of the deposited data

Results flagged for a closer look

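Of 90 sets of 4 libraries (10 enzymes in 9 groups), 9 held a library further from the others than the critical value of Dixon's test at 95%, and about 4.50 are due by chance. In 8 of the 9 the far library was replicate 1 and in 1 it was replicate 4. With clone E, replicate 1 was far above the rest for Gart (ratio of gap to range 0.848, 109 against 76.8 to 81.6 CPM), Pfas (0.848, 75.9 against 55.8 to 58.9), Atic (0.863, 109 against 82.4 to 86.0) and Impdh2 (0.871, 123 against 96.1 to 99.5). With clone V, replicate 1 was far above for Paics (0.858, 402 against 331 to 341 CPM) and Adsl (0.939, 91.0 against 48.1 to 50.7). Adsl was also high in replicate 1 with clone H (0.887, 56.5 against 44.4 to 45.8 CPM) and with clone K (0.843, 55.5 against 44.9 to 46.6). The set with replicate 4 was Gart with clone T (0.845), where that library was lowest, 85.7 against 94.4 to 96.0 CPM.

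The change against mono-culture differed between the 7 clones for 9 enzymes by edgeR's test over the clones together, with adjusted p-values of 1.19e-06 for Cad, 0.00173 for Dhodh, 1.50e-07 for Umps, 1.33e-08 for Ppat, 3.91e-07 for Gart, 0.00432 for Pfas, 0.00191 for Paics, 0.000112 for Atic and 0.00175 for Impdh2. The same test called 67.5% of all genes.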

How the results depend on the processing

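No call changed direction under the alternatives run. The number of enzymes called in the mean of the 7 clones was 5, and 3 under RLE scaling, under no scaling, with no filter, with at least 10 counts in every library and on both RPKM scales, where Umps and Atic were not called. With clone M the number was 1, and 2 (Dhodh and Gart) at a threshold of 0.1, with no scaling, on both RPKM scales and with only the 8 libraries compared. Leaving out 1 library at a time gave 1 to 3 enzymes with clone E, 1 to 2 with clone M and 3 to 5 in the mean of the clones. The other comparisons' counts stayed within 1.5 times their values in these refits. No scaling moved the median of all genes by at most -0.095 (clone V).

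With replicate number as a block, 6 calls of single enzymes were gained and 0 lost: Pfas with clone E, clone T, KPC1 and in the mean of the clones (adjusted p 0.0195), Umps with KPC1 (0.0373) and Gart with clone M. Clone M had 2 enzymes called, and 3 of the 80 neighbouring pairs were called in place of 1, an alternative added after seeing the data. The labels do not say that a number marks a shared batch or day, and the pairs did not all correlate. Same-numbered libraries of 2 co-cultures correlated between -0.52 and 0.69 in their deviations from the group means, and 63 of 112 pairs exceeded 0.1. Of 32 co-culture libraries, 23 correlated best with their own number. The library names also number the co-cultures replicate by replicate, each replicate running through all lines. Same-numbered co-culture libraries may thus have been handled together, and the fit without a block does not model this. With mono-culture 5 of 32 pairs exceeded 0.1. Depth limits Dhodh most, at 81 to 269 counts.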

Other observations

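The recovery of bases and nucleosides, the other route to nucleotides, was called about as often as all genes were in the mean of the clones. Of 13 listed salvage genes (14 rows, since Uck2 has 2 identifiers, all tested), 4 rows were higher and 3 lower there, with a median of 0.09, where 24.3% of all genes were higher and 24.9% lower. Upp1, uridine phosphorylase (0.85, adjusted p = 0.0402, SE 0.345), and Uck2, a uridine-cytidine kinase (0.35, adjusted p = 3.24e-04, SE 0.0775 for 1 identifier and 0.33 with an adjusted p of 0.062 for the other), were highest. Upp1 was scarce, at 0.468 ± 0.0741 CPM in mono-culture and between 0.338 ± 0.198 with clone K and 1.72 ± 0.480 with clone N among the clones. Pnp, purine nucleoside phosphorylase (-0.74, adjusted p = 4.44e-07, SE 0.101), and Tk2, the mitochondrial thymidine kinase (-0.53, adjusted p = 1.69e-07, SE 0.0679), were lowest. By line 8 salvage rows were higher with clone V, 7 with clones H and T and with KPC1, 4 with clone N and 0 with clones E, K and M, while 3 were lower with each clone and 4 with KPC1. These counts too are to be read against the shares of all genes given for each line above.

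Of 14 listed breakdown genes 12 were tested, and 4 were higher and 3 lower in the mean of the clones, with a median of 0.07, also near those shares. Xdh, the xanthine dehydrogenase of purine breakdown, was at 195 ± 23 CPM in mono-culture and between 82.8 ± 10.7 with KPC1 and 128 ± 25.7 with clone N in the co-cultures (mean clonal change -0.74, adjusted p = 9.37e-07, SE 0.105). Ampd3, an AMP deaminase, was also lower (-0.62, adjusted p = 0.0439, SE 0.255). Nt5e, which cleaves extracellular AMP, was higher (0.89, adjusted p = 0.0331, SE 0.346), with 1.67 ± 0.542 CPM in mono-culture, 10.5 ± 3.21 with clone N and 0.838 ± 0.251 with clone M. Gda, guanine deaminase, had the largest mean clonal value without passing (adjusted p = 0.0921), and stood at 0.218 ± 0.223 CPM in mono-culture, 12.6 ± 6.04 with clone M and 0.0150 ± 0.0299 with clone V (SD, n = 4 each).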
